A study of Mus musculus with 12 samples.

Results

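Genes of the hyaluronan-based matrix that surrounds neural cells, 10 of the 54532 genes counted, were followed in RNAseq of mouse brainstem progenitors. They are the lecticans *Ncan*, *Bcan*, *Vcan* and *Acan*, the link proteins *Hapln1*, *Hapln2* and *Hapln4*, the tenascins *Tnc* and *Tnr*, and the receptor phosphatase *Ptprz1*. The genes were chosen by name for what they encode, and each symbol matched a single row of the count tables. The progenitors came from the brainstem of C57BL/6 pups of postnatal days 3 to 5 by the labels, with the genotype Nestin TVA; p53 floxed, and grew without serum in EGF and FGF2 as neurospheres. TVA is the receptor that lets RCAS viruses into a cell, and here the nestin promoter drove it, so that nestin-expressing progenitors could be infected. The 4 groups, 3 samples each, received RCAS virus for ACVR1, either WT or R206H, given alone or together with virus for H3.1K27M. Samples that received R206H together with H3.1K27M are called samples with both mutations. ACVR1 is a BMP type I receptor, R206H is a mutation that activates it, and H3.1K27M is the histone mutation that occurs with it in childhood brainstem glioma. All 4 groups carried the floxed p53 alleles, and the labels name no Cre virus for these samples. The labels do not tie replicate numbers to litters, so that p values measure only the spread between these samples.

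Lecticans are chondroitin sulfate proteoglycans that bind hyaluronan at one end and tenascins at the other, and link proteins clamp the bond to hyaluronan. Tenascin-R, from oligodendrocyte-lineage cells and some neurons, crosslinks lecticans in the mature net, while tenascin-C belongs to germinal zones, reactive glia and gliomas. *Ptprz1* encodes a receptor whose secreted form, phosphacan, is itself a chondroitin sulfate proteoglycan, and reads counted per gene do not separate the forms.

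Proximal promoters are shown for *Ncan* and *Tnc*, which were highest in the samples with both mutations, and for the neighbours *Vcan* and *Hapln1*, which went opposite ways with H3.1K27M. Sequences are the 250 bases before the RefSeq start in GRCm38.p6, read on the strand of the gene, and capitals mark the E-box CANNTG, the element that basic helix-loop-helix factors bind and that ID proteins keep them from.
*Ncan*, chr8:70120845-70121094 (-): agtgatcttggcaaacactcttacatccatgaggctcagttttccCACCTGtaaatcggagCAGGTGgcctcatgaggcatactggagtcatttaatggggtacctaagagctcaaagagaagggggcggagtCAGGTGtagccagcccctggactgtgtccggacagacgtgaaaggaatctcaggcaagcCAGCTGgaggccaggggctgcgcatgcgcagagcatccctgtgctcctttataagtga
*Tnc*, chr4:64047016-64047265 (-): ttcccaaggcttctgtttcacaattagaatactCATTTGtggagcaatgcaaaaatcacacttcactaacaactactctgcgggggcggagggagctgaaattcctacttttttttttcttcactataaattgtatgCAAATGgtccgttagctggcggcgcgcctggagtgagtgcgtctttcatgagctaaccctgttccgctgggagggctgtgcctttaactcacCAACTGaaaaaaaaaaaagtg
*Vcan*, chr13:89742513-89742762 (-): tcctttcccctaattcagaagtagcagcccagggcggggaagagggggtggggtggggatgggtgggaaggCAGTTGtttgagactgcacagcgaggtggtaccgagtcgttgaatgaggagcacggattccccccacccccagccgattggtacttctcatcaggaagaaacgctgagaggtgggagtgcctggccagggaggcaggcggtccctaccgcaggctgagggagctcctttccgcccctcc
*Hapln1*, chr13:89540386-89540635 (+): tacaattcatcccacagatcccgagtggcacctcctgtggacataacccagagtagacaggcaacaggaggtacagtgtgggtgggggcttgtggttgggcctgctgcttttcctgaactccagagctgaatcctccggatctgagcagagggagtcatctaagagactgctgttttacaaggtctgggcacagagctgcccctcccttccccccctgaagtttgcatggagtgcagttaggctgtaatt

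The *Ncan* window held 4 E-box matches, *Tnc* 3, *Vcan* 1 and *Hapln1* 0, on letters that read the same on both strands. Of 32851 mouse promoter windows of this length, 66.2% held at least 1 match, 12.2% at least 3 and 3.84% at least 4. RefSeq promoters were matched for 9 of the 10 genes. *Acan* and *Hapln2* held 1 E-box each, and *Bcan*, *Tnr* and *Ptprz1* held 0. None of the 9 windows held GGCGCC, the GC-rich element bound by BMP SMADs, which 9.59% of all windows held, or the SMAD box GTCTAGAC, which 0.167% held, on either strand. Neither overlaps the E-box in its letters, and a match describes the sequence only.

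Depth ranged between 19315020 and 26456257 counts a sample. Values are given as CPM, the counts of a gene scaled to a common library size with TMM factors over the 12 samples. The ACVR1 WT samples varied most, with a biological coefficient of variation of 0.274 against 0.045 to 0.059 in the other 3 groups, and replicate 1 stood apart. Its log2 CPM correlated with replicates 2 and 3 at r = 0.973 and 0.955 across genes, while those replicates correlated at 0.990 with each other, so that a value printed against ACVR1 WT is followed by the value without replicate 1 where leaving it out changed the call or clearly moved the value. The labels were checked on the row for mouse *Acvr1*, whose mean was 50.5 CPM with ACVR1 WT, 94.2 with ACVR1 R206H, 234 when H3.1K27M joined ACVR1 WT and 868 with both mutations. With H3.1K27M the *Acvr1* row was thus 1.91 higher on the log2 scale with R206H than with WT (adjusted p = 0.00045 from edgeR). The viruses carry human ACVR1, and neither the share of its reads on the mouse row nor the part of unequal expression in the differences below was tested. The BMP target *Id1* had 15.4, 35.8, 13.4 and 104.8 CPM in the same order. All 7 neural progenitor markers and all 6 oligodendrocyte precursor markers were detected in every group, with summed levels of 2241 to 3462 and 2747 to 4113 CPM, and the 7 neuron markers summed to 25.7 to 68.7 CPM.

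Seen per kilobase of merged exons, the scale on which genes can be compared, *Ncan*, *Bcan* and *Ptprz1* were the leading transcripts in every group and *Acan* was close to absent. *Bcan* led with ACVR1 WT, at 270.2 ± 66.5 CPM per kilobase (SD, n = 3) against 222 ± 56.9 for *Ncan*, a gap within the spread. Without replicate 1 the gap was wider, at 308 for *Bcan* against 193 for *Ncan*. *Ncan* came first in the other 3 groups, at 411 ± 43.8 with ACVR1 R206H, 358 ± 21.3 with H3.1K27M and ACVR1 WT, and 836 ± 44.1 CPM per kilobase with both mutations. In that last group *Ncan* was 10th among the 28788 genes detected, and it was 98th with ACVR1 WT. *Vcan* stood above *Tnc* per kilobase without H3.1K27M, at 40.3 against 13.1 with ACVR1 WT (43.4 against 7.91 without replicate 1) and 43.6 against 19.5 with ACVR1 R206H. With H3.1K27M, *Tnc* had 24.4 ± 2.66 and *Vcan* 22.0 ± 2.10 CPM per kilobase in the ACVR1 WT samples, a gap within the spread, and *Tnc* had 42.5 ± 1.05 against 22.8 ± 1.51 for *Vcan* in the ACVR1 R206H samples, a gap beyond it.

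The make-up of the lectican transcripts differed between the groups, given here as values without a test. *Ncan* supplied 41.9 ± 11.7% of lectican CPM per kilobase with ACVR1 WT, 58.1 ± 3.23% with ACVR1 R206H, 50.5 ± 0.915% with ACVR1 WT and H3.1K27M and 72.3 ± 0.992% with both mutations (SD, n = 3). The 3 ACVR1 WT samples had 55.1%, 37.7% and 32.8%, so that replicate 1 lay within the range of the ACVR1 R206H samples, which had 61.3%, 54.8% and 58.0%. The 3 samples with both mutations, at 71.5%, 71.9% and 73.4%, lay above all others. *Bcan* supplied 50.5%, 35.8%, 46.4% and 25.8% on average in the same order of groups, and *Vcan* 7.58%, 6.17%, 3.1% and 1.98%.

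**Figure D1:**
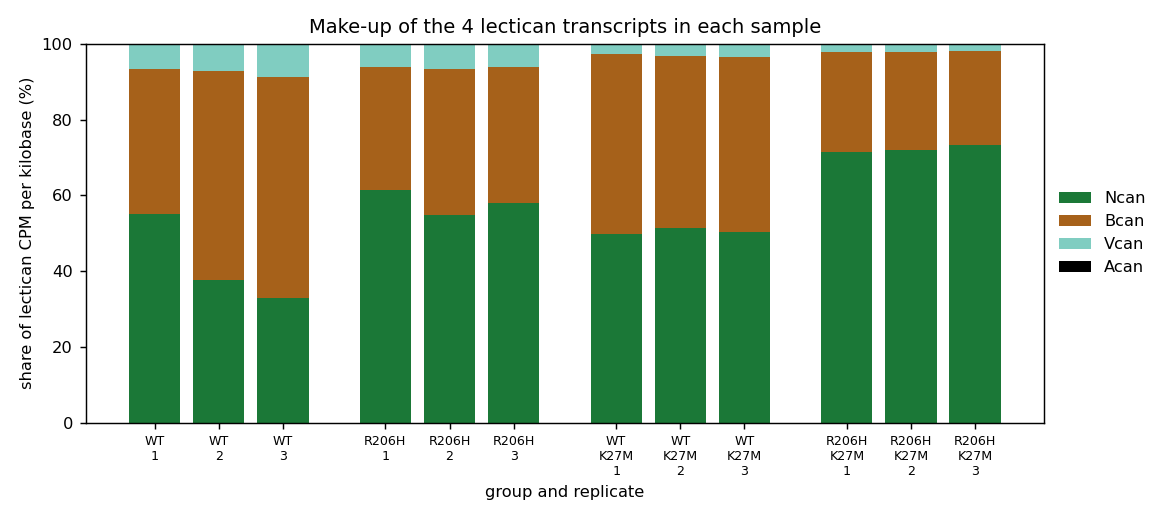
Share of each lectican in the summed lectican CPM per kilobase of merged exons (y axis, percent) in each of the 12 samples (x axis, group and replicate number; K27M stands for H3.1K27M). *Ncan* took between 32.8% and 55.1% in the ACVR1 WT samples and between 71.5% and 73.4% in the samples with both mutations, while *Acan* is too small to be seen.

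Differences were tested with edgeR's quasi-likelihood test over all genes that passed a filter on low counts, with Benjamini-Hochberg adjustment, and called at an adjusted p under 0.05. *Acan* and *Hapln2* did not pass the filter in any comparison. *Hapln1* passed only where samples with H3.1K27M took part, so that against samples without it *Hapln1* was tested only because of its high level with H3.1K27M. ACVR1 R206H against ACVR1 WT with H3.1K27M gave 5 calls among 8 genes tested, where 20.3% of all 15672 genes tested were called, and 3 of the 5 were higher (background 11.4%) and 2 lower (8.95%). Without H3.1K27M the same comparison gave 0 calls among 7 genes, where 0% of 15066 genes were called and 534 had an unadjusted p under 0.05. *Ncan* alone of the 7 had an unadjusted p under 0.05, and DESeq2 called *Ncan* alone of them, among 26 genes or 0.173%. H3.1K27M against none gave 2 calls among 8 genes with ACVR1 WT (background 23.0%), 1 higher (12.6%) and 1 lower (10.4%). With ACVR1 R206H it gave 7 calls among 8 (background 56.5%), 5 higher (29.1%) and 2 lower (27.4%). Since the entry of *Hapln1* into these tests fixed its direction, the counts to set against the background are 1 of 7 with ACVR1 WT, which was *Vcan* and lower, and 6 of 7 with ACVR1 R206H, 4 higher and 2 lower. The interaction, which asks whether the effect of R206H differs with and without H3.1K27M, gave 0 calls among the 8 genes and 0.0712% over all 15445. Leaving out ACVR1 WT replicate 1 turned 0 of 7 into 5 of 7 without H3.1K27M (background 23.1%), 1 of 7 into 6 of 7 for H3.1K27M with ACVR1 WT, again without *Hapln1* (52.6%), and 0 of 8 into 3 of 8 for the interaction (26.6%). Each group enters 2 of the 4 comparisons, which are therefore not independent. Fewer cells of a type and less RNA per cell cannot be told apart in these bulk samples.

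**Figure D2:**
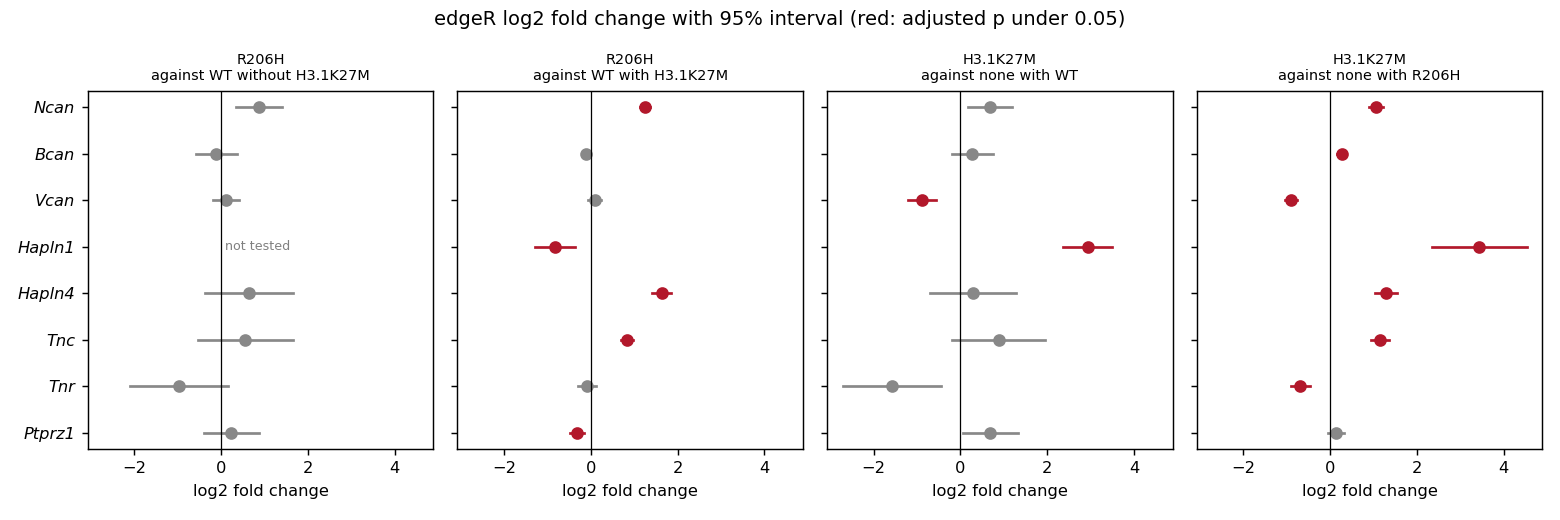
edgeR log2 fold change (x axis) of 8 genes (y axis) in the 4 comparisons, with points for the estimate, lines for the 95% interval, and red for an adjusted p under 0.05. For the genes other than *Hapln1*, which the filter let in against samples without H3.1K27M only through its level with it, intervals are wider in the comparisons that use the group ACVR1 WT, and *Ncan*, *Hapln4* and *Tnc* lie to the right of 0 in all 4.

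*Ncan* (ENSMUSG00000002341, chr8:70093085-70120873, minus strand of mm10) encodes neurocan, a secreted lectican of the developing brain. It had 2017, 1577 and 1199 CPM with ACVR1 WT, 3318, 2742 and 2807 with ACVR1 R206H, 2549, 2744 and 2442 with ACVR1 WT and H3.1K27M, and 5678, 6058 and 6308 with both mutations. The samples with both mutations were far above all others, and ACVR1 WT was below all others, while the ACVR1 R206H samples and the samples of ACVR1 WT with H3.1K27M overlapped. With H3.1K27M, *Ncan* rose by 1.25 on the log2 scale with R206H (standard error 0.051, adjusted p = 1.3e-08 from edgeR). Without H3.1K27M the difference was 0.88 (95% interval 0.35 to 1.41, adjusted p = 0.94 from edgeR and 0.018 from DESeq2), and 1.09 without ACVR1 WT replicate 1 (adjusted p = 0.0037). *Ncan* rose by 1.05 with H3.1K27M in ACVR1 R206H samples (standard error 0.072, adjusted p = 1.9e-07 from edgeR). With ACVR1 WT the difference was 0.68 (standard error 0.21, adjusted p = 0.061 from edgeR), and 0.88 without replicate 1 (adjusted p = 0.00057). It was also called by DESeq2 (adjusted p = 0.0047), by edgeR on all 12 samples (adjusted p = 0.0082) or without the filter on low counts (adjusted p = 0.033), and by voom with sample weights (adjusted p = 9e-05). The effects of R206H with and without H3.1K27M differed by 0.38 (95% interval -0.14 to 0.89), which did not pass the test (adjusted p = 0.71), and by 0.18 without ACVR1 WT replicate 1 (adjusted p = 0.41).

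*Bcan* (ENSMUSG00000004892, chr3:87987531-88000230, minus strand) encodes brevican, a lectican of glial cells. It had 791, 1300.4 and 1203 CPM with ACVR1 WT, 999, 1092 and 983 with ACVR1 R206H, 1379, 1366 and 1271 with ACVR1 WT and H3.1K27M, and 1189, 1235 and 1206 with both mutations. Differences were small, and the ACVR1 WT samples spanned the ACVR1 R206H samples and those with both mutations. *Bcan* rose by 0.27 with H3.1K27M in ACVR1 R206H samples (standard error 0.05, adjusted p = 0.00061 from edgeR), a call that a fit on all 12 samples did not give (adjusted p = 0.19). R206H without H3.1K27M gave -0.11 (adjusted p = 0.94), and -0.29 without ACVR1 WT replicate 1 (adjusted p = 0.039). H3.1K27M with ACVR1 WT gave 0.27 (adjusted p = 0.35), and 0.086 without replicate 1 (adjusted p = 0.36). R206H with H3.1K27M gave -0.11 (95% interval -0.20 to -0.026, adjusted p = 0.068), without overlap between the groups. It was called lower without the filter on low counts (-0.13, adjusted p = 0.0067), by voom with sample weights (-0.14, adjusted p = 0.0094), and without replicate 3 of ACVR1 WT with H3.1K27M (adjusted p = 0.015) or replicate 2 of the samples with both mutations (adjusted p = 0.041).

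*Vcan* (ENSMUSG00000021614, chr13:89655312-89742509, minus strand) encodes versican, a large lectican of migrating and precursor cells. It had 492, 609 and 647 CPM with ACVR1 WT, 655, 652 and 584 with ACVR1 R206H, 283, 339 and 331 with ACVR1 WT and H3.1K27M, and 327, 353 and 309.9 with both mutations. Every sample with H3.1K27M was below every sample without it. *Vcan* fell by 0.89 on the log2 scale with H3.1K27M in ACVR1 WT samples (standard error 0.13, adjusted p = 0.0074 from edgeR) and by 0.90 in ACVR1 R206H samples (standard error 0.062, adjusted p = 2.1e-07). R206H against WT gave 0.11 without H3.1K27M (95% interval -0.19 to 0.41), or 0.0013 without ACVR1 WT replicate 1, and 0.09 with it (95% interval -0.063 to 0.24), and neither passed the test. *Acan* (ENSMUSG00000030607, chr7:79053483-79115099, plus strand), which encodes aggrecan, the main lectican of adult perineuronal nets, had 1 to 11 counts a sample, at most 0.472 CPM, and was not tested.

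Among the link proteins, *Hapln4* and *Hapln1* differed in opposite directions with R206H. *Hapln4* (ENSMUSG00000007594, chr8:70083457-70090862, plus strand) encodes a link protein of the brain. It had 10.4, 3.66 and 4.13 CPM with ACVR1 WT, 10.6, 7.59 and 10.4 with ACVR1 R206H, 8.30, 7.93 and 6.28 with ACVR1 WT and H3.1K27M, and 23.3, 20.3 and 24.5 with both mutations. The samples with both mutations stood above all others, and ACVR1 WT replicate 1 was at the level of the ACVR1 R206H samples. With H3.1K27M, *Hapln4* rose by 1.63 with R206H (standard error 0.10, adjusted p = 4.3e-07 from edgeR), and in ACVR1 R206H samples it rose by 1.28 with H3.1K27M (standard error 0.12, adjusted p = 1.9e-06). The other comparisons gave 0.65 for R206H without H3.1K27M (95% interval -0.37 to 1.66) and 0.30 for H3.1K27M with ACVR1 WT (95% interval -0.69 to 1.28), with adjusted p of 0.94 and 0.64. Without ACVR1 WT replicate 1 they became 1.29 and 0.93, with adjusted p of 0.0047 and 0.0026. The effects of R206H with and without H3.1K27M differed by 0.99 (95% interval -0.0069 to 1.98, adjusted p = 0.65), and by 0.36 without ACVR1 WT replicate 1 (adjusted p = 0.28).

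*Hapln1* (ENSMUSG00000021613, chr13:89539796-89611652, plus strand) encodes cartilage link protein, also made in brain. It had 0.282, 0.413 and 0.340 CPM with ACVR1 WT, 0.151, 0 and 0.243 with ACVR1 R206H, 2.74, 2.96 and 2.36 with ACVR1 WT and H3.1K27M, and 1.28, 1.20 and 1.90 with both mutations. The value of 0 rests on 0 counts in that sample, which allows up to 0.155 CPM by counting error alone. The 4 groups did not overlap, and the level stayed low, with at most 66 counts a sample. The fitted difference by H3.1K27M was 2.93 with ACVR1 WT (standard error 0.23) and 3.44 with ACVR1 R206H (standard error 0.50), from groups with 0 to 8 counts a sample to groups with 27 to 66, and is given as a description because the filter let *Hapln1* in only through the higher groups. Within the samples with H3.1K27M it fell by 0.82 with R206H (standard error 0.21, adjusted p = 0.015 from edgeR), a call lost without replicate 2 of ACVR1 WT with H3.1K27M, without replicate 1 of ACVR1 R206H with H3.1K27M, and with all 12 samples fitted (adjusted p = 0.20). *Hapln2* (ENSMUSG00000004894, chr3:88021750-88027583, minus strand), which encodes the link protein of the node of Ranvier, had 3 to 12 counts a sample and at most 0.604 CPM.

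**Figure D3:**
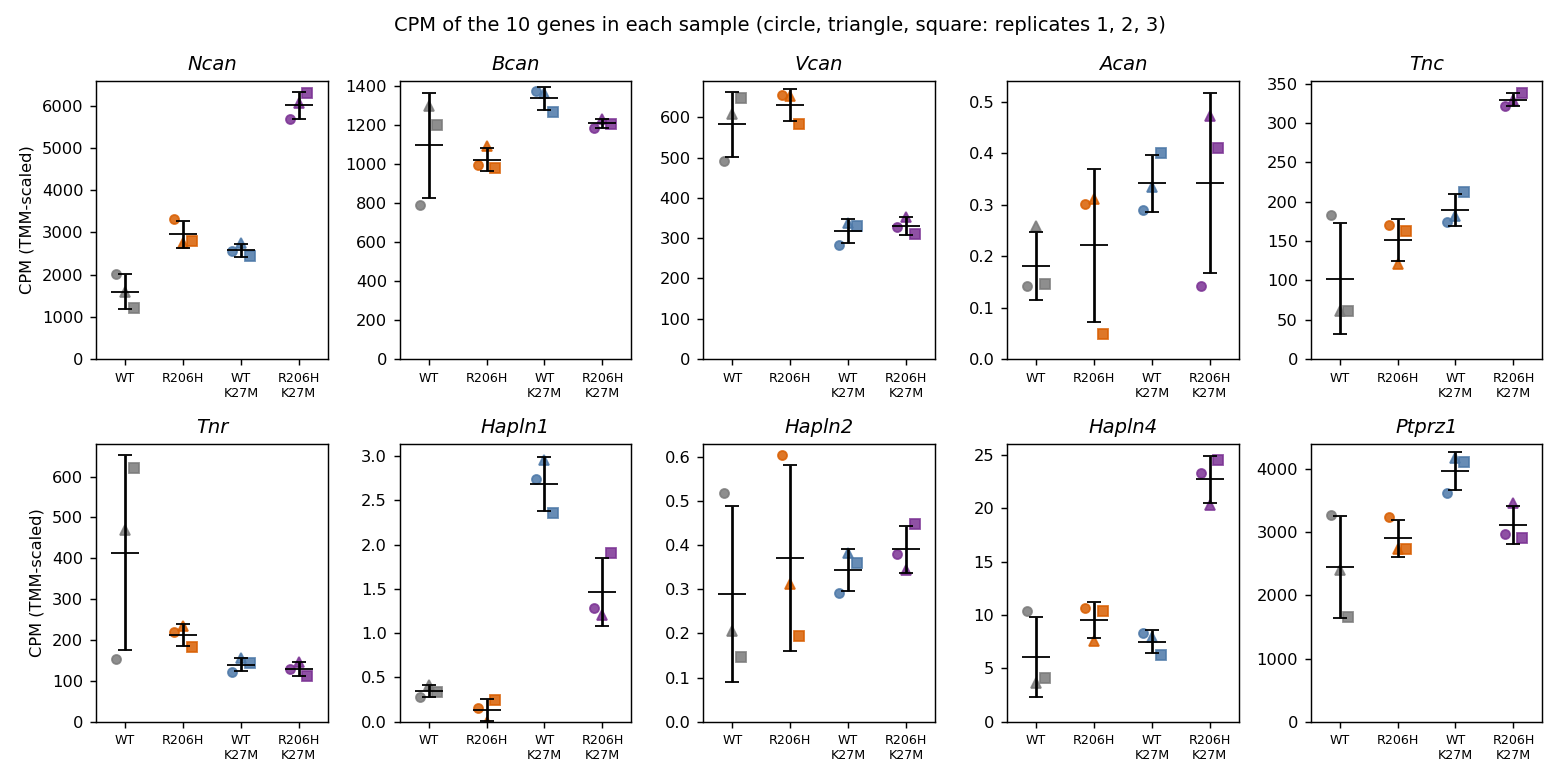
TMM-scaled CPM (y axis, from 0) of the 10 genes in the 4 groups (x axis; K27M stands for H3.1K27M), with a symbol for each replicate and black bars for the mean and SD of 3 samples. Replicate 1 of ACVR1 WT (circle) lies apart from replicates 2 and 3 for *Tnc*, *Tnr*, *Hapln4* and *Bcan*, and *Vcan* is at 353 CPM or less in all 6 samples with H3.1K27M.

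Every lectican gene lies next to a link protein gene with no coding gene between them, and these neighbours differed in whether they moved together. *Ncan* and *Hapln4* lie tail to tail with 2222 bases between them. Their ratio per kilobase stayed between 106 and 235 over the 12 samples, with group means of 167 and 172 for WT and R206H alone, and of 189 and 145 with H3.1K27M. Without ACVR1 WT replicate 1, which had the lowest ratio, the mean for WT alone was 197. The reads were counted without strand, so that transcripts running past the *Ncan* end could be counted on *Hapln4*, and the part of this in the *Hapln4* values was not tested. *Vcan* and *Hapln1*, tail to tail and 43659 bases apart, went opposite ways with H3.1K27M. *Bcan* and *Hapln2* lie 21519 bases apart on the same strand. *Acan* ends 2 bases from the end of *Hapln3*, a link protein found outside the brain as well, which had 0.891, 0.988, 2.50 and 2.11 CPM on average and rose by 1.12 with H3.1K27M in ACVR1 R206H samples (standard error 0.35, adjusted p = 0.017 from edgeR). With ACVR1 WT the difference was 1.48 (standard error 0.47, adjusted p = 0.065), and 1.57 without replicate 1 (adjusted p = 0.021).

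**Figure D4:**
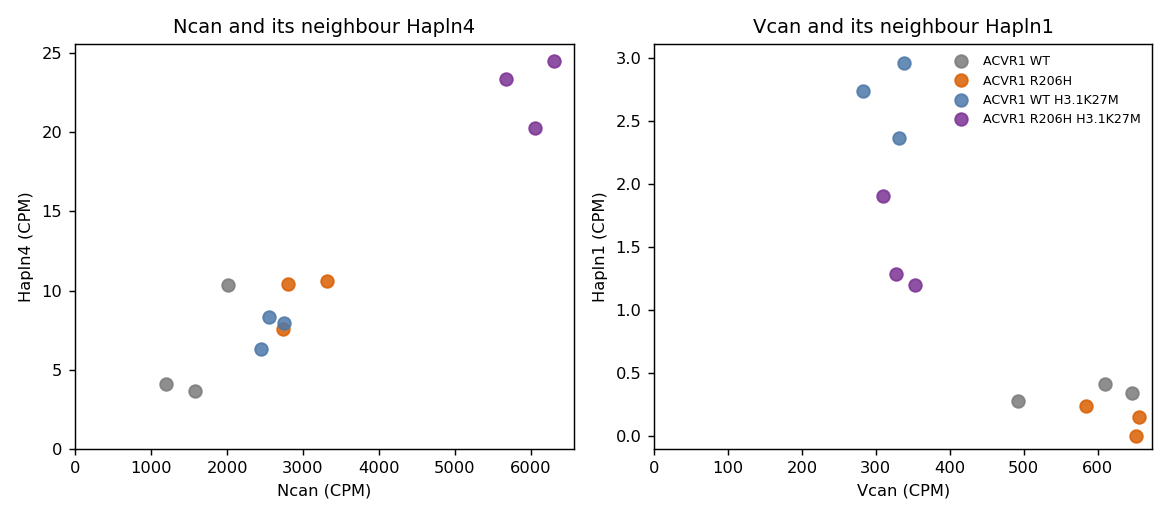
CPM of *Hapln4* against CPM of its neighbour *Ncan* (left) and of *Hapln1* against its neighbour *Vcan* (right), each point a sample and each colour a group. *Ncan* and *Hapln4* are both highest in the samples with both mutations, while *Hapln1* is at 1.20 CPM or more in the 6 samples where *Vcan* is at 353 CPM or less.

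*Tnc* (ENSMUSG00000028364, chr4:63959785-64047015, minus strand) encodes tenascin-C. It had 183, 61.5 and 61.4 CPM with ACVR1 WT, 169.8, 121 and 163 with ACVR1 R206H, 174, 181 and 213 with ACVR1 WT and H3.1K27M, and 322, 330.1 and 338 with both mutations. ACVR1 WT replicate 1 alone reached the level of ACVR1 WT with H3.1K27M, while the other two replicates were below all samples of the remaining groups. *Tnc* rose by 1.15 with H3.1K27M in ACVR1 R206H samples (standard error 0.096, adjusted p = 1e-06 from edgeR). With ACVR1 WT the difference was 0.88 (95% interval -0.18 to 1.94, adjusted p = 0.195), and 1.61 without replicate 1 (adjusted p = 6.9e-06). R206H without H3.1K27M gave 0.56 (95% interval -0.53 to 1.66, adjusted p = 0.94), and 1.30 without ACVR1 WT replicate 1 (adjusted p = 0.0022). The effect of R206H, 0.83 with H3.1K27M (adjusted p = 2.3e-06), differed from that without H3.1K27M by 0.27 (95% interval -0.81 to 1.35, adjusted p = 0.87), and without ACVR1 WT replicate 1 by -0.46 (adjusted p = 0.0496). With all 12 samples in the fit, the *Tnc* difference by R206H with H3.1K27M was 0.83 and not called (adjusted p = 0.29). The sums of the marker lists of some other cell types were highest, like *Tnc*, *Ncan* and *Hapln4*, in the samples with both mutations. The 5 fibroblast or pericyte markers, all detected, summed there to 23.4 to 30.0 CPM and to 8.06 to 16.2 CPM in the other groups. Within ACVR1 WT, however, they summed to 11.5, 11.5 and 8.06 CPM and did not single out replicate 1. *Rgs5* made up most of the fibroblast or pericyte sum with both mutations, at 14.8 to 22.5 CPM. *Rgs5* and *Col1a2* were above all other samples in that group, while *Pdgfrb*, *Col1a1* and *Lum* overlapped the other groups. With both mutations the 4 endothelial markers summed to 2.66 to 4.86 CPM, and to 1.12 to 2.28 CPM in the other groups. *Kdr* made up most of the sum with both mutations, at 1.97 to 3.62 CPM, while *Pecam1* and *Cdh5* overlapped the other groups. *Cldn5* had at most 1 count a sample with both mutations and 0 in the other groups. The 7 neural progenitor markers summed to 2932, 2241 and 2289 CPM with ACVR1 WT, 2963 to 3087 with ACVR1 R206H, 2492 to 2649 with H3.1K27M and ACVR1 WT, and 3025 to 3462 with both mutations. The sums were thus higher with R206H than with WT, without overlap, whether or not H3.1K27M was present. Without H3.1K27M only *Vim* of the 7 did not overlap, at 1421 to 1980 CPM with WT and 2084 to 2192 with R206H. The list then had 0 calls and a median log2 difference of -0.027, against -0.013 over all genes tested. R206H with H3.1K27M gave 4 of the 7 higher (background 11.4%), *Sox2*, *Pax6*, *Vim* and *Msi1*, and 1 lower (8.95%), *Nes*. *Vim* made up most of the progenitor sum, with 2570 CPM on average with both mutations. H3.1K27M with ACVR1 R206H gave 1 of the 7 higher (background 29.1%), *Vim*, and 4 lower (27.4%), *Sox2*, *Pax6*, *Hes5* and *Prom1*. The part of these cell types in the *Tnc*, *Ncan* and *Hapln4* values was not tested.

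*Tnr* (ENSMUSG00000015829, chr1:159523769-159931729, plus strand) encodes tenascin-R. It had 152, 468 and 621 CPM with ACVR1 WT, 219.6, 234 and 184 with ACVR1 R206H, 122, 155 and 143 with ACVR1 WT and H3.1K27M, and 128, 146 and 113 with both mutations. Replicates 2 and 3 of ACVR1 WT were above all other samples, and replicate 1 was within the range with H3.1K27M. The 6 astrocyte markers followed this within ACVR1 WT, where they summed to 3191, 8222 and 12671 CPM, against 5332 to 6309 with ACVR1 R206H, 4024 to 4143 with ACVR1 WT and H3.1K27M and 4833 to 5019 with both mutations. The lists of 6 oligodendrocyte, 7 neuron and 5 microglia markers, all detected, were also lowest in ACVR1 WT replicate 1 and highest in replicate 3 of that group. Oligodendrocyte markers summed to 360.3, 629 and 818 CPM there and to 351 to 504 CPM in the other 3 groups. Neuron markers summed to 28.6, 64.7 and 68.7 CPM against 25.7 to 43.9, and microglia markers to 2.73, 7.02 and 9.76 CPM against 1.29 to 5.30. The sum of the 6 oligodendrocyte precursor markers, 3196 to 3472 CPM, hid opposite moves within ACVR1 WT. *Gpr17* had 36.2, 718 and 1264 CPM, *Sox10* 16.7, 63.0 and 69.6, and *Pdgfra* 129.8, 428 and 299, all lowest in replicate 1 like *Tnr*, whereas *Olig1*, *Olig2* and *Cspg4* were highest in replicate 1, with *Olig1* at 2118, 1572 and 1144 CPM. The part of these cell types in the *Tnr* values was not tested. *Tnr* fell by 0.69 on the log2 scale with H3.1K27M in ACVR1 R206H samples (standard error 0.099, adjusted p = 9.3e-05 from edgeR), a call not given by the fit on all 12 samples (adjusted p = 0.16). With ACVR1 WT the difference was -1.57 (95% interval -2.71 to -0.44, adjusted p = 0.057 from edgeR and 0.0018 from DESeq2), and -1.97 without replicate 1 (adjusted p = 1.5e-05). R206H gave -0.97 without H3.1K27M (adjusted p = 0.94), -1.36 there without ACVR1 WT replicate 1 (adjusted p = 0.0019), and -0.08 with H3.1K27M (95% interval -0.29 to 0.12). The difference between these effects of R206H was 0.89 (adjusted p = 0.69), and 1.29 without ACVR1 WT replicate 1 (adjusted p = 0.00041).

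The balance of the tenascins differed between the groups, again without a test. The ratio of *Tnc* to *Tnr* per kilobase was 1.99, 0.217 and 0.164 in the ACVR1 WT samples, a mean of 0.791 that replicate 1 carried and that was 0.191 without it. It was 1.20 on average with ACVR1 R206H. It was 2.26 with ACVR1 WT and H3.1K27M and 4.28 with both mutations, where its lowest value, 3.73, was above the highest of the other groups, 2.47.

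*Ptprz1* (ENSMUSG00000068748, chr6:22875502-23052916, plus strand) had 3279.5, 2411 and 1665 CPM with ACVR1 WT, 3247, 2739 and 2738 with ACVR1 R206H, 3625, 4177 and 4112 with ACVR1 WT and H3.1K27M, and 2979.9, 3467 and 2904 with both mutations. ACVR1 WT with H3.1K27M was above all other samples, and the other 3 groups overlapped. With H3.1K27M it fell by 0.32 on the log2 scale with R206H (standard error 0.071, adjusted p = 0.0074 from edgeR), the opposite sign to *Ncan* and *Tnc*, and a fit on all 12 samples did not call it (adjusted p = 0.53). Of the 6 oligodendrocyte precursor markers, 5 were called lower in the same comparison, where 8.95% of all genes tested were. Their summed levels were 3452 to 4113 CPM with WT and 3341 to 3444 with R206H, and their part in the *Ptprz1* values was not tested. H3.1K27M gave 0.68 with ACVR1 WT (95% interval 0.05 to 1.32, adjusted p = 0.11 from edgeR), and 0.95 without replicate 1 (adjusted p = 0.0013). DESeq2 and edgeR on all 12 samples called that difference too (adjusted p = 0.024 and 0.022). With ACVR1 R206H it was 0.13 (95% interval -0.05 to 0.31, adjusted p = 0.20), and 0.22 without ACVR1 R206H replicate 1, where it was called (adjusted p = 0.039). R206H without H3.1K27M gave 0.24 (adjusted p = 0.94), and 0.51 without ACVR1 WT replicate 1 (adjusted p = 0.062). The effects of R206H with and without H3.1K27M differed by -0.55 (95% interval -1.19 to 0.081, adjusted p = 0.685), and by -0.82 without ACVR1 WT replicate 1 (adjusted p = 0.0057).

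Genes that make, cut or bind this matrix were taken from lists of known function. Over all genes tested with H3.1K27M, R206H against WT called 20.3%, of which 11.4% were higher and 8.95% lower as shares of the genes tested. It called 5 of 11 hyaluronan genes, 2 higher and 3 lower, among them the hyaluronan receptor *Cd44* at 0.59 and the hyaluronan synthase *Has2* at -0.73 on the log2 scale. Of 24 chondroitin sulfate genes, 1 was higher, the epimerase gene *Dse* at 0.42, and 6 were lower, led by the sulfotransferase gene *Chst11* at -0.43 and *Xylt1*, which starts the chains, at -0.56. Of 12 proteases and their inhibitors 3 were higher and 1 lower, with *Adamts1* at 1.05 and *Adamts4*, both of which encode enzymes that cut lecticans, at -0.45. The 20 receptors, ligands and partners split evenly, 6 higher and 6 lower, with *Sema3a* at 0.89, *Rtn4rl1* at 0.76 and *Egfr* at -0.73. The median differences of these 4 lists, -0.026, -0.07, 0.045 and -0.024, lay near the median over all genes tested, 0.0014.

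H3.1K27M against none called 9 of the 24 chondroitin sulfate genes with ACVR1 WT, 7 higher and 2 lower, where 23.0% of all genes were called. With ACVR1 R206H it called 18, 13 higher and 5 lower, where 56.5% of all genes were called. Without ACVR1 WT replicate 1 the count with ACVR1 WT was 18, with a background of 52.6%. The sulfotransferase gene *Chst15* rose by 1.71 and 1.41 and *Chst11* by 0.86 and 0.41, while *Papss2*, which supplies activated sulfate, fell by 4.53 and 2.94, the first against ACVR1 WT samples of 4.23 to 75.6 CPM. Among proteases and inhibitors, *Mmp2* rose by 3.37 and 3.00 and *Adamts1* by 0.96 and 1.56, and the inhibitor *Timp3* fell by 2.13 and 1.69, with 3 higher and 2 lower of 12 with ACVR1 WT and 5 of each with ACVR1 R206H. Of the 20 receptors, ligands and partners, 5 were higher and 0 lower with ACVR1 WT and 10 higher and 6 lower with ACVR1 R206H. The growth factor *Mdk*, a ligand of *Ptprz1*, rose by 3.66 and 3.37, and *Itga8*, an integrin subunit that binds tenascin-C, rose by 2.93 and 2.70, the first being 3.81 without ACVR1 WT replicate 1. *Ptn*, listed beside *Mdk* as a ligand, was lower in every sample with H3.1K27M than in every sample without it. Its mean was 3356 against 2393 CPM with ACVR1 WT, where it was not called, and 3455 against 2600 with ACVR1 R206H. The group means of *Mdk* were 1.12 to 15.3 CPM. Of 11 hyaluronan genes, 1 was higher and 1 lower with ACVR1 WT, and 5 were higher and 3 lower with ACVR1 R206H. *Ugdh*, which makes the sugar precursor of both hyaluronan and chondroitin sulfate, fell by 0.78 and 0.96. Without ACVR1 WT replicate 1, the counts called with ACVR1 WT were 6 of 12 proteases and inhibitors, 14 of 20 receptors, ligands and partners, and 8 of 11 hyaluronan genes. R206H without H3.1K27M and the interaction gave 0 calls in these lists by edgeR. Without that replicate, R206H gave 6 of 11 hyaluronan genes, 4 of 24 chondroitin sulfate genes, 5 of 12 proteases and inhibitors and 10 of 20 receptors, ligands and partners (background 23.1%), and the interaction gave 3, 7, 5 and 11 in the same order (background 26.6%).

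The genes with the profile most like that of a member over the 12 samples were sought among 13902 genes, by the root mean square difference of log2 CPM centred on each gene's mean, for the 4 members with the widest range of group means. *Hapln4* was closest to *Adamtsl3* (0.288), *Ncan* (0.295) and *F11r* (0.309), so that its neighbour *Ncan* was the second nearest of all genes. *Ncan* was closest to *Cyp26b1* (0.171), *Ror1* (0.224) and *Ccdc3* (0.227), with *Hapln4* in 17th place. *Tnc* was closest to *Plvap* (0.126), *Zbtb7c* (0.182) and *Jag1* (0.189). *Hapln1* was closest to *Egfl6* (0.458), *Cryzl2* (0.592) and *Kcnk1* (0.605), and the nearest other member, *Tnc*, was at 1.33.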

How the data were processed

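RNAseq counts of 12 samples, 3 in each of 4 groups taken from the sample labels, were analysed. Paired-end reads were mapped to mm10 (GRCm38) by the authors using STAR 2.6.0b-1. The authors counted them per Ensembl gene with HTSeq without strand, leaving out reads with several matches, and deposited the raw counts of each sample, neither normalized nor pooled. Symbols and positions for 54409 of 54532 genes came from GENCODE M21, an annotation of the same build, and promoters from RefSeq (GRCm38.p6).

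Genes with a mean of at least 10 counts after median-of-ratios scaling were tested with edgeR 4.0.16 in R 4.3.3 (TMM, quasi-likelihood F test, Benjamini-Hochberg adjustment over all genes tested, threshold 0.05) on the 6 samples of a comparison, and on all 12 for the interaction. Standard errors were the log2 fold change over the square root of F. Alternatives were DESeq2 1.42.0, its size factors in edgeR, no filter, a replicate block, all 12 samples, voom with sample weights (limma 3.58.1) and leaving out each replicate. Same-numbered samples did not deviate together in every pair (correlations -0.115 to 0.325), so the main fits have no block.

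The genes, lists and tests were chosen with earlier results of these data known. Named genes were the 10 members, *Hapln3*, *Tnn* and *Tnxb*, *Acvr1* and *Id1*, up to 3 genes per list and direction by adjusted p, and the 3 nearest profiles of 4 members among genes of at least 1 CPM, with 0.1 CPM added before taking log2. Marker lists were reported by their sums, and the marker genes named were chosen after their values were seen. The lists were neural progenitor, oligodendrocyte precursor, oligodendrocyte, astrocyte, neuron, microglia, endothelial, and fibroblast or pericyte, and *Cspg4* is in both the precursor and the partner list. With 3 samples against 3, an exact test of a single gene cannot go below 0.1, so p values come from fits over all genes. Depth kept *Acan* and *Hapln2*, with few counts, out of the tests.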

Additional observations from a re-analysis of the deposited data

How the results depend on the processing

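The spread of the ACVR1 WT samples set most limits. For R206H without H3.1K27M, edgeR called 0 genes and 0 members, DESeq2 26 and 1, the fit on all 12 samples 11 genes, and voom with sample weights 3683 and 5; leaving out a replicate gave 0 to 3485 genes and 0 to 5 members. With H3.1K27M, all 12 samples in the fit gave 440 genes and 2 members, *Ncan* and *Hapln4*, against 3185 and 5, and leaving out a replicate 1915 to 2966 genes. For H3.1K27M with ACVR1 WT (3533 genes, 2 members), the replicate block gave 2023 genes, all 12 samples 6335 genes and 5 members, and voom 9234 and 7. DESeq2 gave 4522 genes and 5 members there, and no filter 3437 of 29398 genes and 4 members. Leaving out a replicate gave 1037 to 8115 genes and 2 to 7 members. For H3.1K27M with ACVR1 R206H (8745 genes, 7 members), all 12 samples gave 5963 genes and 5 members. Leaving out a replicate there gave 7589 to 8350 genes and 7 to 8 members, with *Ptprz1* added without ACVR1 R206H replicate 1. For the interaction (11 genes, 0 members), DESeq2 gave 97 genes, no filter 18, the replicate block 2, voom 4550 genes and 2 members, and leaving out a replicate 3 to 4112 genes and 0 to 3 members. Among the fits without a replicate, the highest of these counts came without ACVR1 WT replicate 1 in each comparison that used it. Member counts here include *Hapln1*. The labels give groups the same replicate numbers, but the block changed no call of a member. Signs turned for *Bcan* by R206H without H3.1K27M (-0.29 to 0.028 over left-out replicates), *Tnr* by R206H with H3.1K27M (-0.20 to 0.0089), and in the interaction for *Bcan* (voom 0.20, left-out replicates -0.14 to 0.19), *Vcan* (voom 0.0018, -0.098 to 0.097), *Tnc* (voom -0.43, -0.46 to 0.54) and *Hapln1* (-0.038 to 1.27), and the cause was not tested. All 40 group levels stayed within 1 SD under DESeq2's size factors.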

Other observations

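The tenascins outside the members were near the detection limit. *Tnn* had 4 to 18 counts and *Tnxb* 2 to 15 counts a sample, with group means of 0.276 to 0.501 and 0.30 to 0.429 CPM. Genes that overlap the members on the opposite strand had few counts: 11 to 49 a sample for *Gm4117* at *Vcan*, 3 to 28 for *8030451A03Rik* at *Tnc*, and 3 to 22 for *Gm8546* at *Hapln1*, whose own counts were 0 to 66.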
